A study of Mus musculus with 9 samples.

Results

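The protein genes of the mitochondrial ribosome were followed through a mouse aortic dissection experiment. They were taken as every gene symbol that starts with Mrpl or Mrps and a digit and whose mean level over 9 libraries was at least 1 FPKM (fragment counts scaled by transcript length and by library), with an unlisted symbol set to 0. All 77 matching symbols met that level, 48 of them named for the large subunit (Mrpl) and 29 for the small subunit (Mrps), among 12997 genes that met it and 17179 symbols in all. No matching symbol lay below the threshold. The lowest were Mrpl19 with a mean of 3.69 FPKM and Mrpl1 with 5.02 FPKM, and each of the 77 was listed in every library. Mrpl58, the peptidyl-tRNA hydrolase that became part of the large subunit, appears under its older symbol Ict1 and is described with the related genes.

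RNA came from the aorta of C57BL/6J mice killed on day 28. The normal group (2 libraries) drank distilled water without drug. Every other group received β-aminopropionitrile (BAPN), which blocks the lysyl oxidases that cross-link elastin and collagen, at 1 g/kg/day: BAPN alone (2 libraries), with TPA, which activates AP-1, a transcription factor of Fos and Jun proteins, injected intraperitoneally at 50 ng/g/day from day 1 (2 libraries), with the AP-1 inhibitor T-5224 by gavage at 5 mg/kg/day (2 libraries), or with coenzyme Q10 (coQ10), an electron carrier of the respiratory chain, by gavage at 10 mg/kg/day (1 library). Gavage started on day 7 or day 14, and no source used here says which start applies to a library. The T-5224 libraries were taken as replicates 1 and 2 of 1 group by their treatment label. Their titles give 2 and 3 weeks, so they may differ in length of treatment. Such a difference cannot be told apart from the spread between replicates. The coQ10 library bears a title read here as coQ10. The protocol names 12 mice per treatment. No source used here says whether a library is 1 aorta or a pool, or gives the age and sex of the mice. The p-values therefore measure the spread between these libraries only, which may be technical.

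Mitochondria carry their own ribosome, which translates the few respiratory chain subunits encoded in mitochondrial DNA. Its RNAs are made inside the organelle, whereas all of its proteins are encoded in the nucleus, made in the cytosol and imported. The large subunit (39S) holds the peptidyl transferase centre and the exit tunnel that faces the inner membrane, and the small subunit (28S) holds the decoding centre. Many of the proteins have bacterial counterparts and the rest were added in mitochondria, and tissues that respire heavily, such as heart and skeletal muscle, are rich in them.

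The libraries differed in more than treatment. Haemoglobin genes held 1.03% to 1.25% of all FPKM in the normal libraries, 68.9% and 74.1% with BAPN, 69.2% and 69.4% with TPA, 5.40% with coQ10, and 40.8% and 11.2% with T-5224. All 9 smooth muscle markers, which define the labelled tissue, were listed in every library and summed to 6815 and 18957 FPKM (normal), 2078 and 769 (BAPN), 10628 (coQ10), 2662 and 3476 (TPA) and 13128 and 3682 (T-5224), so the BAPN pair was lowest. All 8 cardiac markers were listed in every library and summed to 11246 and 55.0 FPKM in the normal libraries, 30.02 and 60.1 with BAPN, 65.6 with coQ10, 3557 and 890.2 with TPA and 47.9 and 1566 with T-5224. All 9 skeletal muscle markers were listed likewise and summed to 2811 and 18.5 FPKM (normal), 3214 and 1762 (BAPN), 51.6 (coQ10), 7982 and 14814 (TPA) and 20.5 and 8985 (T-5224). The 8 airway markers summed to 18049 and 39.6 FPKM (normal), 17.6 and 15.5 (BAPN, with Sftpc among those at 0 in both), 31.5 (coQ10), 12693 and 4861 (TPA) and 20.5 and 4263 (T-5224). Brown adipocyte markers (7, of which up to 2 were at 0) summed to 1145 and 157 FPKM (normal), 248 and 86.9 (BAPN), 1499.8 (coQ10), 669.99 and 722 (TPA) and 118 and 1083 (T-5224). White adipocyte markers (6, with 1 at 0 in T-5224 replicate 2) summed to 15743 and 4208 FPKM, 4531 and 3231, 7431, 4212 and 5644, and 1214 and 20039.98 in the same order. By these sums both adipocyte lists were high in normal replicate 1, coQ10 and T-5224 replicate 2. The ribosomal set was high in the same 3 libraries and in T-5224 replicate 1, where the adipocyte sums were low. By the mean of log2(FPKM + 1) over each list, T-5224 replicate 2 lay below both TPA libraries. The values were 6.73 against 6.82 and 7.09 for white and 3.98 against 4.29 and 4.24 for brown adipocyte markers. In bulk tissue, fewer cells of a type and less RNA per cell cannot be told apart, and the part of these tissues in the values below was not tested.

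Summed over the 77 genes, mitochondrial ribosomal protein transcripts reached 3533 and 2123 FPKM in the normal libraries. The sums were 2666 and 2181 FPKM with BAPN, 3175 with coQ10, 2329 and 2542 with TPA, and 3303 and 5661 with T-5224. The 2 normal libraries lay far apart and, but for T-5224 replicate 2, enclosed the sums of all other libraries. As a share of the FPKM outside haemoglobin the same sums spanned only 0.427% to 0.618%, with the normal libraries at both ends of that range. On that share T-5224 replicate 2, at 0.5815%, lay below T-5224 replicate 1, at 0.6044%, and normal replicate 1. Total FPKM differed as well, from 502238 in normal replicate 2 to 1802047 in BAPN replicate 2, with 1095891 in T-5224 replicate 2. On the scale used for the tests, log2(FPKM + 1), the mean of the 77 genes was 5.12 and 4.44 (normal), 4.57 and 4.35 (BAPN), 4.88 (coQ10), 4.50 and 4.60 (TPA) and 4.89 and 5.60 (T-5224). Measured from the median tested gene of each library, the group means were 1.25 ± 0.28 for normal, 1.44 ± 0.17 for BAPN, 1.36 ± 0.12 for TPA and 2.01 ± 0.60 for T-5224 (SD, n = 2 each), and 1.47 for the coQ10 library. The normal, coQ10, BAPN and TPA means lay between 1.25 and 1.47. The pooled SD within groups was 0.34, a value that includes the wide T-5224 pair. T-5224 lay higher through replicate 2, at 2.43, while replicate 1, at 1.59, was close to BAPN replicate 1, at 1.55.

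**Figure D1:**
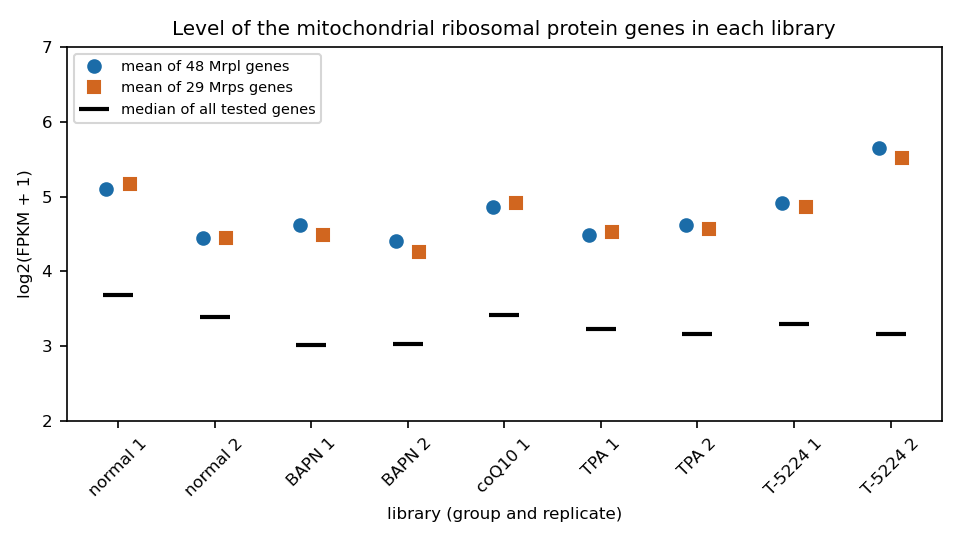
Mean log2(FPKM + 1) of the 48 Mrpl genes (circles) and the 29 Mrps genes (squares) in each of the 9 libraries, with the median of the 12997 tested genes as a bar. Both subunits move together from library to library, between 4.41 and 5.65 for Mrpl and between 4.26 and 5.51 for Mrps, and both are highest in T-5224 replicate 2.

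The mean log2 levels of the 2 subunits lay close together in every library. In summed FPKM the large subunit weighed more in T-5224 replicate 2 (4065 Mrpl, 1596 Mrps) than in normal replicate 1 (2316 and 1216). The mean of the Mrpl genes minus that of the Mrps genes, on the log2(FPKM + 1) scale, was -0.064 and 0.0035 in the normal libraries, 0.14 and 0.15 with BAPN, -0.048 with coQ10, -0.033 and 0.053 with TPA, and 0.050 and 0.14 with T-5224. Replicates differed by little (pooled SD 0.050), and the BAPN libraries lay above both normal libraries by a mean of 0.18. An exact two-sided permutation test gave p = 0.333 for that difference, the smallest value that 2 against 2 libraries can give. Both TPA libraries lay below both BAPN libraries, with a mean difference of -0.14 (exact permutation p = 0.333). For T-5224 the mean difference was -0.052 (exact permutation p = 0.333), but T-5224 replicate 2 lay only just below BAPN replicate 1 (0.1369 against 0.1377). That order turned with a pseudocount of 0.1 (0.128 against 0.1258) and with median-of-ratios scaling (0.137 against 0.1358), so these 2 groups were not separated. Between TPA and T-5224 the exact permutation p was 0.667.

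Levels differed far more between genes than between groups. FPKM is a value per length, yet the shorter members had the higher mean FPKM (Spearman's rho -0.66 across genes). The part of transcript length in the order of the genes was not tested. Mean FPKM over the 9 libraries ran from 3.69 for Mrpl19 to 177.9 for Mrpl52, with a median of 29.7 over the 77 genes, 29.5 over Mrpl and 29.8 over Mrps. The order was much the same in every library. Spearman's rho of the 77 levels was 0.865 to 0.968 over the 32 pairs of libraries from different groups and 0.884 to 0.968 over the 4 pairs within a group. Over all tested genes the same pairs gave 0.688 to 0.930 and 0.767 to 0.957. These correlations run across genes, which are not independent replicates.

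The highest large subunit genes were Mrpl52, Mrpl33, Mrpl42 and Mrpl30. Mrpl52 (chr14:54426909-54429756, + strand, in GRCm38), a protein added in mitochondria, had 118 and 90.8 FPKM in the normal libraries, 205 and 188 with BAPN alone, 136 with coQ10, 107 and 124 with TPA, and 189 and 443 with T-5224. Its normal and TPA libraries were the low ones, and T-5224 replicate 2 was more than any other library by a wide margin. Mrpl33 (chr5:31596935-31664384, + strand), a small zinc-ribbon protein in bacteria, had 109 and 114 FPKM in the normal libraries, 209.7 and 109 with BAPN alone, 166 with coQ10, 121 and 125 with TPA, and 219.8 and 363 with T-5224. Mrpl42 (chr10:95480805-95501940, - strand), another mitochondrial addition and 1 of the 5 most abundant members in all 9 libraries, had 236 and 101 FPKM in the normal libraries, 96.4 and 113 with BAPN alone, 132 with coQ10, 146 and 173 with TPA, and 176 and 258 with T-5224. Mrpl30 (chr1:37890477-37898535, + strand) had 127 and 61.2 FPKM in the normal libraries, 90.6 and 80.5 with BAPN alone, 124 with coQ10, 98.1 and 83.5 with TPA, and 94.9 and 303 with T-5224. For Mrpl33 and Mrpl30 too the highest library was T-5224 replicate 2, whereas Mrpl42 was nearly as high in normal replicate 1.

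Among the small subunit genes Mrps21 was the most abundant. Mrps21 (chr3:95862634-95871519, - strand) had 158 and 79.1 FPKM in the normal libraries, 128 and 101 with BAPN alone, 158 with coQ10, 134 and 130.1 with TPA, and 258 and 160.1 with T-5224. It was unlike most members in that T-5224 replicate 1, not replicate 2, was its highest library. Mrps34 (chr17:24895116-24897502, + strand), a small subunit protein added in mitochondria, had 82.7 and 52.2 FPKM in the normal libraries, 60.4 and 52.5 with BAPN alone, 104 with coQ10, 60.4 and 64.6 with TPA, and 59.1 and 109.5 with T-5224. Mrps15 (chr4:126046925-126055532, + strand), which binds the small ribosomal RNA, had 107 and 41.8 FPKM in the normal libraries, 35.2 and 45.6 with BAPN alone, 77.1 with coQ10, 47.4 and 59.9 with TPA, and 88.2 and 136 with T-5224, and its BAPN libraries lay below all TPA, coQ10 and T-5224 libraries. Mrps18c (chr5:100798627-100804471, + strand), 1 of 3 copies of bacterial S18, stayed at 40.5 and 37.8 FPKM in the normal libraries, 37.2 and 41.4 with BAPN alone, 41.1 with coQ10, 29.8 and 33.4 with TPA, and 55.0 and 133 with T-5224. Its first 7 values lay within 29.8 to 41.4 FPKM, and the T-5224 pair lay above them.

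At the low end, Mrpl19 (chr6:81957851-81965958, - strand) had 4.89 and 4.02 FPKM (normal), 2.55 and 3.47 (BAPN), 3.43 (coQ10), 3.10 and 2.85 (TPA) and 4.94 and 3.99 (T-5224). Mrpl1 (chr5:96209493-96266727, + strand), which lines the exit site for used tRNA, had 6.30 and 3.64 FPKM (normal), 2.62 and 3.63 (BAPN), 4.32 (coQ10), 4.59 and 4.16 (TPA) and 6.73 and 9.17 (T-5224). In both genes the BAPN pair lay below the normal pair, for Mrpl1 only just in replicate 2, and below the T-5224 pair.

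**Figure D2:**
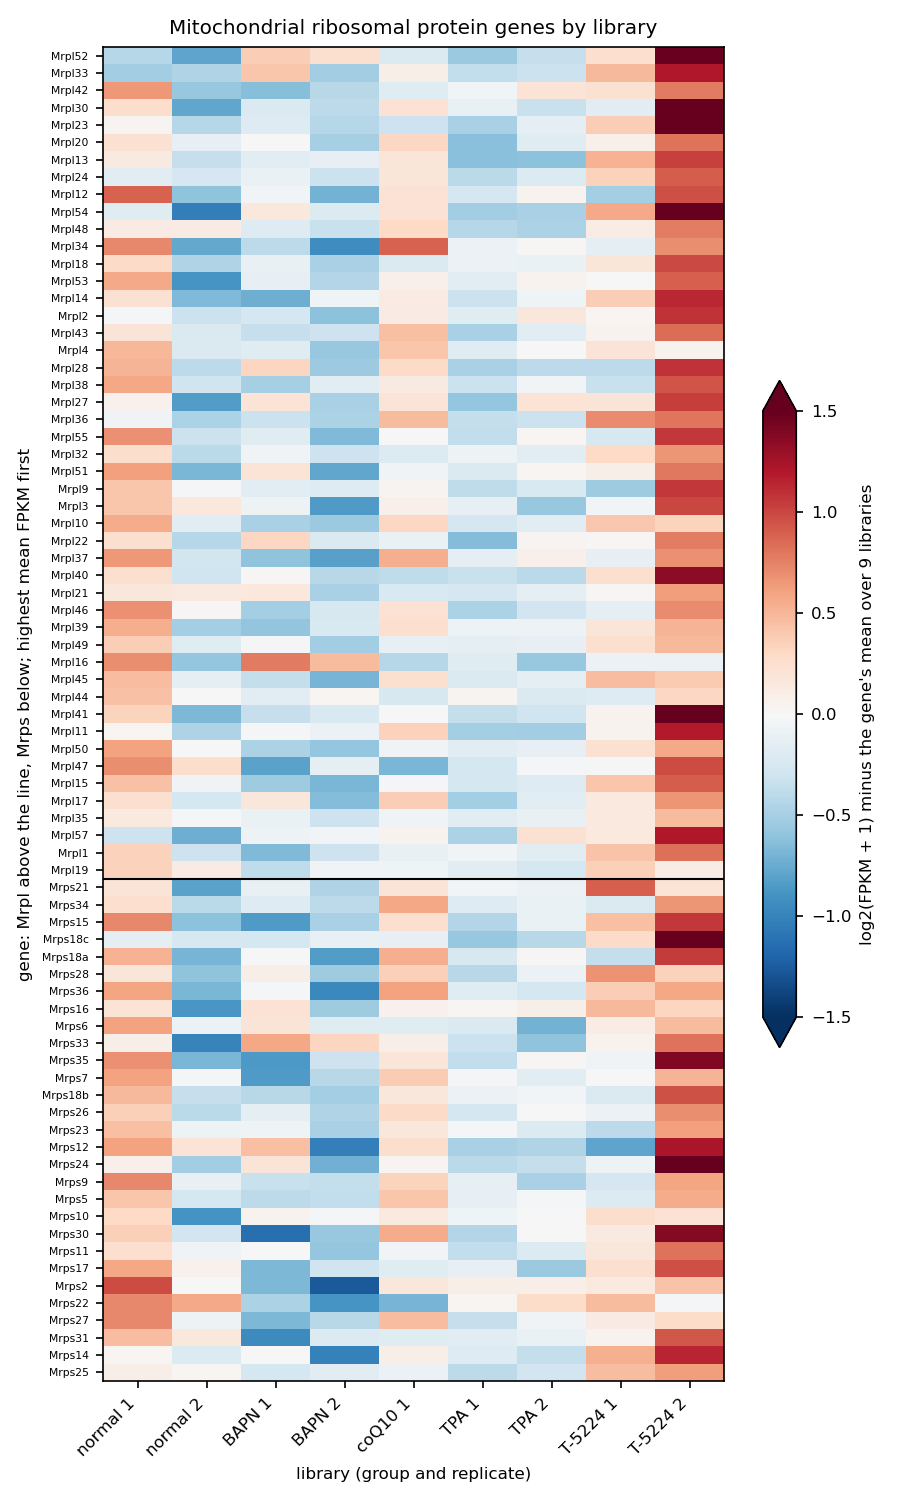
Each row is 1 of the 77 genes and each column 1 library; colour gives log2(FPKM + 1) minus the gene's own mean over the 9 libraries, saturating at -1.5 and 1.5. The T-5224 replicate 2 column is red in most rows, where 57 of 77 genes have their highest value, and the BAPN replicate 2 column is blue, where 30 of 77 have their lowest.

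The library in which a gene peaked was shared widely. Of the 77 genes, 57 had their highest FPKM in T-5224 replicate 2 and 13 in normal replicate 1, compared with 21.8% and 24.9% of all tested genes. The lowest value fell in BAPN replicate 2 for 30 genes, and in normal replicate 2 and BAPN replicate 1 for 16 each, compared with 21.9%, 13.9% and 17.1% of all tested genes. With median-of-ratios scaling, which puts the libraries on a common median gene, 63 genes peaked in T-5224 replicate 2, and after removal of a trend with transcript length 39 did. The share of all tested genes was not taken for either setting. The 21.8% above holds for FPKM as deposited only, so whether 63 or 39 is unusual was not tested.

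The fit across all 12997 genes (limma, Benjamini-Hochberg adjustment) called no member in any of the 5 comparisons at an adjusted p under 0.05. The changes are therefore given as values. The test of any difference among the 5 groups called none either (background 0.0692%, 9 genes), and 5 members (6.49%, background 18.2%) had an unadjusted p under 0.05 there: Mrpl36, Mrps22, Mrpl13, Mrpl15 and Mrpl54. A member's change had a median SE of 0.41, or 0.50 against the single coQ10 library, so a 95% interval typically reached 0.97 (1.19 for coQ10) to each side on the log2 scale. A missed threshold here does not show that a gene stayed the same.

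Whether BAPN alone changes the set was the question of the first comparison. In BAPN against normal, 64 members had a change below 0 and 13 above. Their median log2 change was -0.32, but that of all tested genes was -0.51, so the set lay 0.19 above the median gene. That distance was 0.0017 with no filter on low genes, 0.34 and 0.031 without normal replicate 1 and 2, and 0.078 and 0.38 without BAPN replicate 1 and 2. With a length trend removed it was -0.20, so its size and its sign depended on the setting. With median-of-ratios scaling the direction of the members' own median turned, to 0.24, and 55 of 77 lay above 0. It turned too without normal replicate 1, to 0.022, with 39 of 77 above 0. None of the 77 passed, against 3.26% of all tested genes (424). At an unadjusted p under 0.05 the members numbered 6 (7.79%), all lower with BAPN, and all tested genes 32.4%. In 25 members both BAPN libraries lay below both normal libraries (background 51.1%), and in 3, Mrpl52, Mrpl57 and Mrps33, both lay above (background 15%). Scaled by the median of ratios, those counts became 5 (background 28.8%) and 29 (background 30.1%).

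The genes nearest the threshold belonged to the small subunit. Mrps22 (chr9:98588730-98601660, - strand), a mitochondrial addition whose loss in people causes a respiratory chain disorder, had 22.6 and 20.4 FPKM in the normal libraries, 9.33 and 6.78 with BAPN alone, 7.82 with coQ10, 13.6 and 16.4 with TPA, and 19.0 and 13.2 with T-5224. The BAPN and coQ10 libraries were the low ones, and the normal, TPA and T-5224 libraries did not overlap with them. Its log2 change in BAPN against normal was -1.33 (SE 0.30, limma adjusted p = 0.0558), with a 95% interval of -2.05 to -0.60. Mrps2 (chr2:28468066-28471178, + strand), the counterpart of bacterial S2, had 27.2 and 13.3 FPKM in the normal libraries, 7.97 and 4.97 with BAPN alone, 15.1 with coQ10, 14.1 and 14.3 with TPA, and 14.8 and 18.2 with T-5224. Both BAPN libraries lay below every other library, and the change was -1.46 (SE 0.40, limma adjusted p = 0.0706). Mrps22 and Mrps2 were lower with BAPN under each scaling tried, and both of their BAPN pairs stayed below both normal libraries after median-of-ratios scaling. When 1 of the T-5224 libraries, which enter only the estimate of the spread here, was left out, Mrps22, Mrps2 and Mrpl52 passed (adjusted p 0.0203, 0.0446 and 0.0409 without replicate 1, and 0.0195, 0.0438 and 0.0398 without replicate 2). In those fits 3 of 77 members (3.9%) passed, against 28% and 28.2% of all tested genes. Over all settings tried the adjusted p ran from 0.0195 to 0.256 for Mrps22, 0.0438 to 0.289 for Mrps2 and 0.0275 to 0.447 for Mrpl52.

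Mrpl47 (chr3:32725397-32737605, - strand), the counterpart of bacterial L29, had 14.4 and 10.5 FPKM (normal), 4.45 and 7.62 (BAPN), 4.95 (coQ10), 6.95 and 8.42 (TPA) and 8.36 and 17.9 (T-5224). Its lowest values were those of BAPN replicate 1 and coQ10, BAPN replicate 2 lay above TPA replicate 1, and the change in BAPN against normal was -0.96 (SE 0.43, limma adjusted p = 0.174). At the other end stood Mrpl52, with a change of 0.92 (SE 0.45, limma adjusted p = 0.208), and Mrps33 (chr6:39801804-39810988, - strand), a small protein added in mitochondria, with 36.2 and 16.4 FPKM in the normal libraries, 51.2 and 42.5 with BAPN alone, 36.0 with coQ10, 26.9 and 22.0 with TPA, and 35.1 and 60.2 with T-5224. Mrps33 was higher in both BAPN libraries than in either normal or TPA library, and its change was 0.90 (SE 0.45, limma adjusted p = 0.209). Mrpl54 (chr10:81264713-81266934, - strand), also added in mitochondria, had 51.2 and 27.8 FPKM (normal), 65.3 and 50.5 (BAPN), 67.9 (coQ10), 40.2 and 41.3 (TPA) and 87.0 and 167 (T-5224). Its BAPN and normal libraries overlapped, with a change of 0.59 (SE 0.44, limma adjusted p = 0.375).

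**Figure D3:**
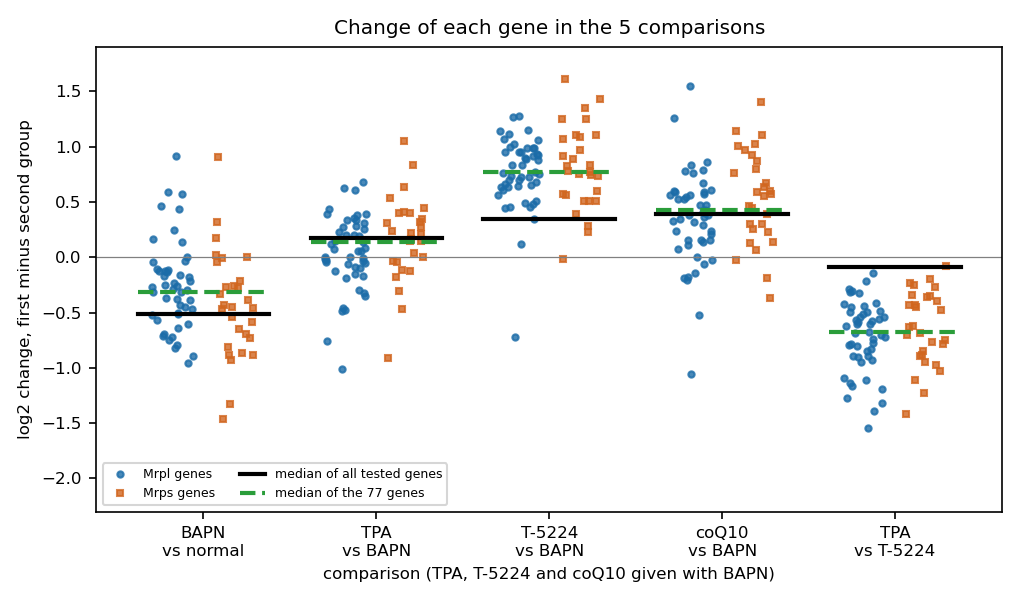
Log2 change of each of the 77 genes in the 5 comparisons (Mrpl circles, Mrps squares), with the median of the 77 (dashed line) and of all tested genes (solid line); the comparisons share libraries. Relative to the median of all genes, the median of the 77 is 0.43 in T-5224 against BAPN, -0.59 in TPA against T-5224, and 0.19, -0.038 and 0.034 in BAPN against normal, TPA against BAPN and coQ10 against BAPN.

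In T-5224 against BAPN the set was placed highest. The changes were above 0 in 75 of 77 members, with a median of 0.77 against 0.35 for all tested genes. No member passed (background 0.0308%, 4 genes). At an unadjusted p under 0.05 there were 22 members (28.6%), all higher with T-5224, with a background of 18.3%. That count was below the background under several alternatives. It was 6 (7.79%) with only the 2 groups fitted (background 10.4%), 7 (9.09%) with median-of-ratios scaling (background 13.9%), 2 (2.6%) with haemoglobin left out of the sum (background 11.1%), 8 (10.4%) with a length trend removed (background 14.6%) and 7 (9.09%) without T-5224 replicate 2 (background 28.8%). It was near the background without either BAPN library, at 9 (11.7%, background 12%) and 7 (9.09%, background 8.53%), and was 46 (59.7%) without T-5224 replicate 1 (background 29.7%). Both T-5224 libraries lay above both BAPN libraries in 57 members (background 34.2%), 35 Mrpl and 22 Mrps, and below them in Mrpl16 alone (background 12.8%). After median-of-ratios scaling these were 21 members above (background 17.1%) and 2 below, Mrpl16 and Mrps10 (background 20.5%). With haemoglobin left out of the sum, 62 of 77 changes were above 0 and the median was 0.23, still 0.34 above that of all genes.

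This placement rested on T-5224 replicate 2. Without it the members' median was 0.46, or 0.12 above that of all genes, with 48 of 77 above the median gene in place of 72. Without replicate 1 in its stead the median was 1.17, or 0.92 above. That library is the one with 8985 FPKM of skeletal muscle markers and 1566 of cardiac markers, against 20.5 and 47.9 in replicate 1, and 11.2% haemoglobin against 40.8%. It also had 20039.98 FPKM of white and 1083 of brown adipocyte markers, against 1214 and 118 in replicate 1. The TPA libraries had 7982 and 14814 FPKM of skeletal and 3557 and 890.2 of cardiac markers. The mean of the set there was 4.50 and 4.60, against 5.60 in T-5224 replicate 2. The titles also give 2 weeks for replicate 1 and 3 weeks for replicate 2. The part of these markers and of treatment length in the T-5224 values was not tested.

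Mrps30 led the members in T-5224 against BAPN. Although named for the small subunit, Mrps30 (chr13:118378381-118387252, - strand) sits in the large one, and it had 20.6 and 12.9 FPKM in the normal libraries, 6.74 and 10.4 with BAPN alone, 23.9 with coQ10, 11.5 and 16.0 with TPA, and 17.6 and 43.0 with T-5224. The BAPN pair was lowest and T-5224 replicate 2 highest, and the change was 1.61 (SE 0.49, limma adjusted p = 0.192). Mrps15 followed with 1.43 (SE 0.49, limma adjusted p = 0.219). Mrps14 (chr1:160195215-160202170, + strand), the counterpart of bacterial S14, had 11.0 and 9.25 FPKM (normal), 10.7 and 4.82 (BAPN), 11.5 (coQ10), 9.27 and 8.23 (TPA) and 16.0 and 24.9 (T-5224). Its 2 T-5224 libraries were the highest of the 9, and the change was 1.35 (SE 0.41, limma adjusted p = 0.192).

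Mrpl16 ran against the rest. Mrpl16 (chr19:11770391-11774960, + strand), a core protein beside the peptidyl transferase centre, had 23.2 and 8.95 FPKM in the normal libraries, 24.6 and 19.8 with BAPN alone, 10.1 with coQ10, 12.1 and 9.05 with TPA, and 13.0 and 13.1 with T-5224. Normal replicate 1 and both BAPN libraries formed a high set above 19 FPKM and the other 6 libraries lay between 8.95 and 13.1. Its changes were -0.72 (SE 0.44, limma adjusted p = 0.407) for T-5224, -1.01 (SE 0.44, limma adjusted p = 0.498) for TPA and -1.06 (SE 0.54, limma adjusted p = 0.318) for coQ10, each against the same BAPN pair. It was the lowest member in all 3 of these comparisons. Mrps33 changed by -0.02 (SE 0.45, limma adjusted p = 0.988) with T-5224. Mrpl44 (chr1:79776018-79781445, + strand), which has an RNase III-like fold, had 16.0 and 11.6 FPKM (normal), 10.3 and 11.8 (BAPN), 9.60 (coQ10), 11.9 and 9.77 (TPA) and 9.94 and 14.5 (T-5224). Mrpl44 varied little, and its change with T-5224 was 0.12 (SE 0.31, limma adjusted p = 0.856).

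TPA against T-5224 sets the AP-1 activator beside the AP-1 inhibitor, both with BAPN. All 77 members had a change below 0, with a median of -0.68 against -0.085 for all tested genes, when the FPKM were used as deposited. With haemoglobin left out of the sum, 39 lay above 0 and 38 below, and the median was 0.0079, while that of all genes was 0.48. None passed (background 0.0154%, 2 genes). At an unadjusted p under 0.05 there were 15 members (19.5%), all lower with TPA, with a background of 10.9%. That count fell to 7 (9.09%) with only the 2 groups fitted (background 8.48%) and 8 (10.4%) with median-of-ratios scaling (background 8.28%). It was below the background with haemoglobin left out, at 1 (1.3%, background 9.74%), with a length trend removed, at 3 (3.9%, background 7.31%), and without T-5224 replicate 2, at 6 (7.79%, background 15.8%). Without TPA replicate 1 or 2 it was 3 (3.9%, background 3.38%) or 5 (6.49%, background 3.05%), and without T-5224 replicate 1 it was 37 (48.1%, background 28.9%). The TPA libraries lay below both T-5224 libraries in 53 members (background 28%) and above them in none (background 16.5%), and after median-of-ratios scaling in 39 (background 20.6%) and none (background 22.5%). Replicate 2 of T-5224 decided the size here too. Without it the median was -0.32, or -0.14 relative to all genes, and 13 members lay above 0. Without replicate 1 it was -1.07, or -1.06 relative to all genes, and 5 members (6.49%) passed, Mrps18c, Mrpl52, Mrpl11, Mrpl13 and Mrpl23, near the 5.12% of all tested genes that passed there.

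Mrpl54 had the lowest value of this comparison, -1.54 (SE 0.44, limma adjusted p = 0.443), and Mrps18c the next, -1.41 (SE 0.43, limma adjusted p = 0.443). Mrpl13 (chr15:55534094-55557748, - strand), the counterpart of bacterial L13 and an early assembling protein there, had 89.3 and 64.2 FPKM in the normal libraries, 72.9 and 74.7 with BAPN alone, 92.3 with coQ10, 52.6 and 53.0 with TPA, and 118 and 167 with T-5224. Its TPA pair was the lowest and its T-5224 pair the highest of the 9 libraries. The change was -1.39 (SE 0.32, limma adjusted p = 0.443), with a 95% interval of -2.15 to -0.63. The smallest differences were those of Mrps22, -0.079 (SE 0.30, limma adjusted p = 0.941), Mrpl44, -0.14 (SE 0.31, limma adjusted p = 0.886), and Mrps2, -0.20 (SE 0.40, limma adjusted p = 0.876).

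**Figure D4:**
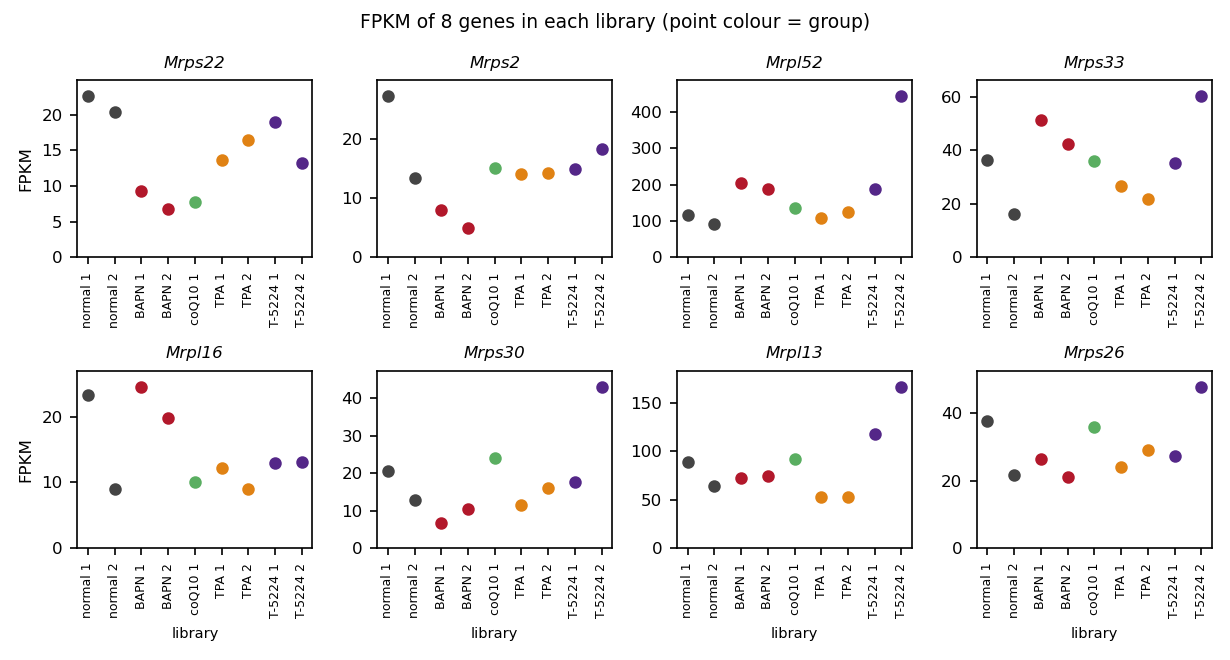
FPKM of 8 genes in each library (y axes start at 0 and differ; points are single libraries coloured by group). Mrps22 is low in the BAPN pair and coQ10, and Mrps2 in the BAPN pair. Mrpl52 is low in the normal and TPA pairs, and Mrps33 in normal replicate 2 and TPA. Mrpl16 is high in normal replicate 1 and BAPN, Mrps30 and Mrpl13 are highest in T-5224 replicate 2, and Mrps26 varies little beyond the set.

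In TPA against BAPN the members lay at the middle of all genes. Changes were above 0 in 48 and below in 29, with a median of 0.14 against 0.18 for all tested genes, and -0.053 with median-of-ratios scaling. Relative to all genes the median was -0.19 without BAPN replicate 2 and -0.12 without TPA replicate 2. None passed (background 0.0385%, 5 genes). The 2 members at an unadjusted p under 0.05 (2.60%, background 10.2%) were Mrps2, with a change of 1.05 (SE 0.40, limma adjusted p = 0.47), and Mrps22, with 0.83 (SE 0.30, limma adjusted p = 0.459). In both, the TPA pair lay above the BAPN pair. These comparisons share the BAPN pair with BAPN against normal, so the opposite signs there are no separate evidence. The TPA pair lay above both BAPN libraries in 21 members (background 41.4%) and below them in 11 (background 21.2%). Median-of-ratios scaling turned the balance, to 11 above (background 31.4%) and 18 below (background 30%). Mrpl37 (chr4:107055874-107066868, - strand), a large subunit protein added in mitochondria, had 35.4 and 18.1 FPKM (normal), 14.2 and 12.2 (BAPN), 32.9 (coQ10), 20.1 and 23.4 (TPA) and 20.3 and 36.2 (T-5224). BAPN was its lowest group, and the change with TPA was 0.68 (SE 0.42, limma adjusted p = 0.584). The lowest values after Mrpl16 were -0.91 (SE 0.45, limma adjusted p = 0.519) for Mrps33 and -0.76 (SE 0.45, limma adjusted p = 0.57) for Mrpl52.

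The single coQ10 library was set against the BAPN pair, with its spread assumed to equal that of the other groups. Changes were above 0 in 66 members, with a median of 0.43 against 0.39 for all tested genes. With median-of-ratios scaling the median was -0.021. None passed (background 0.0154%, 2 genes), and 4 (5.19%, background 19.8%) had an unadjusted p under 0.05. The coQ10 value lay above both BAPN values in 53 members (background 59.6%) and below both in 5 (background 24.1%): Mrpl16, Mrpl44, Mrpl52, Mrps33 and Mrps6. After median-of-ratios scaling 22 lay above (background 39.4%) and 26 below (background 40%). Mrpl34 (chr8:71464959-71465747, + strand), the counterpart of bacterial L34, had 91.4 and 32.2 FPKM (normal), 42.0 and 28.5 (BAPN), 103 (coQ10), 52.0 and 56.1 (TPA) and 49.8 and 90.3 (T-5224). The coQ10 library was its highest, and the change was 1.55 (SE 0.67, limma adjusted p = 0.259). Mrps30 had 1.41 (SE 0.60, limma adjusted p = 0.254) and Mrpl37 1.26 (SE 0.51, limma adjusted p = 0.245). Among the lowest were Mrpl52, -0.53 (SE 0.55, limma adjusted p = 0.627), and Mrps33, -0.36 (SE 0.55, limma adjusted p = 0.74).

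Grouped by origin, the subunit classes lay close to each other. The 30 large subunit proteins with bacterial counterparts had medians of -0.24 (BAPN against normal), 0.056 (TPA against BAPN), 0.83 (T-5224 against BAPN), 0.39 (coQ10 against BAPN) and -0.71 (TPA against T-5224). The 20 large subunit proteins listed as mitochondria-specific, Mrps30 and Mrps18a among them, had -0.35, 0.14, 0.76, 0.42 and -0.57 in the same order. For the 16 bacterial-type small subunit proteins the medians were -0.41, 0.093, 0.81, 0.51 and -0.72. For the 10 small subunit proteins listed as mitochondria-specific, Mrps18b among them, they were -0.50, 0.25, 0.75, 0.52 and -0.43. Mrps18a and Mrps18b are copies of bacterial S18, as is Mrps18c, which was listed as bacterial-type. The lists are therefore not a strict split by origin. No class had a member that passed.

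Relative to the set's own mean in a library, the median gene had an SD of 0.30 over the 9 libraries, against 0.51 before that subtraction. Mrpl16 (SD 0.64), Mrps22 (0.61), Mrps12 (0.53) and Mrpl52 (0.53) strayed most. Mrps12 (chr7:28739641-28741820, - strand), a protein of the decoding centre, had 40.0 and 30.2 FPKM in the normal libraries, 36.0 and 12.3 with BAPN alone, 31.6 with coQ10, 18.3 and 18.8 with TPA, and 14.6 and 62.1 with T-5224. Its BAPN pair and its T-5224 pair each held 1 high and 1 low library, so no group was distinct. The genes that followed the set most closely were Mrps26 (SD 0.13), Mrps11 (0.15), Mrpl18 (0.16) and Mrpl43 (0.17). Mrps26 (chr2:130563742-130568695, + strand) had 37.7 and 21.8 FPKM (normal), 26.5 and 21.0 (BAPN), 35.9 (coQ10), 24.1 and 29.1 (TPA) and 27.2 and 47.9 (T-5224). Mrps11 (chr7:78783119-78792989, + strand), which lines the mRNA exit side of the small subunit, had 18.3 and 14.6 FPKM (normal), 15.3 and 9.86 (BAPN), 14.8 (coQ10), 11.6 and 13.1 (TPA) and 17.2 and 27.6 (T-5224). Both were highest in T-5224 replicate 2 and lowest in BAPN replicate 2, as the mean of the set was. Mrpl18 (chr17:12911349-12916345, - strand) had 66.7 and 39.8 FPKM (normal), 50.3 and 38.8 (BAPN), 46.6 (coQ10), 51.2 and 50.8 (TPA) and 61.9 and 109.5 (T-5224). Mrpl43 (chr19:45004829-45006442, - strand) had 39.4 and 29.6 FPKM (normal), 26.9 and 27.5 (BAPN), 47.4 (coQ10), 24.3 and 30.5 (TPA) and 35.8 and 62.3 (T-5224). In all 4 of these genes T-5224 replicate 2 was the highest library.

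Mrpl10 and Mrpl12 form the stalk that recruits translation factors. Mrpl10 (chr11:97041560-97049213, + strand) had 34.9 and 20.8 FPKM (normal), 16.5 and 15.6 (BAPN), 29.4 (coQ10), 19.5 and 20.7 (TPA) and 31.4 and 29.8 (T-5224). Mrpl12 (chr11:120484613-120489065, + strand) had 124 and 43.2 FPKM (normal), 64.2 and 40.0 (BAPN), 77.2 (coQ10), 55.4 and 68.9 (TPA) and 46.1 and 130.4 (T-5224). Mrpl12 was spread widely within normal, BAPN and T-5224, and Mrpl10 was low with BAPN, where its change against normal was -0.72 (SE 0.31, limma adjusted p = 0.164). Mrpl45 (chr11:97315716-97329920, + strand), which anchors the ribosome to the inner membrane beside the exit tunnel, had 18.6 and 11.9 FPKM (normal), 10.1 and 7.74 (BAPN), 15.7 (coQ10), 11.2 and 11.9 (TPA) and 18.6 and 17.6 (T-5224), with a change of 0.95 (SE 0.30, limma adjusted p = 0.202) in T-5224 against BAPN. Its 2 T-5224 libraries were close together, as were those of Mrpl10. Mrps18a (chr17:46110986-46128910, + strand), a copy of bacterial S18 that sits in the large subunit, had 53.7 and 22.4 FPKM (normal), 36.8 and 20.2 (BAPN), 54.5 (coQ10), 31.3 and 37.5 (TPA) and 28.6 and 77.7 (T-5224). Mrps36 (chr13:100735955-100744659, - strand) keeps a ribosomal name although its protein belongs to the 2-oxoglutarate dehydrogenase complex, and it had 56.0 and 22.6 FPKM (normal), 36.1 and 18.5 (BAPN), 56.8 (coQ10), 32.4 and 30.5 (TPA) and 47.9 and 55.8 (T-5224). Mrps18a and Mrps36 were alike in that normal replicate 1, coQ10 and T-5224 replicate 2 were high and normal replicate 2 and BAPN replicate 2 low.

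Transcript length accompanied these values. The members are short, with a median transcript length of 1223 bases (GENCODE M21, a gene's median over its transcripts) against 2641 for the 12649 tested genes with a length. Among the 77, the shorter genes had the higher mean FPKM (Spearman's rho -0.66 across genes). The libraries differed in how a gene's deviation from its mean went with length. Over tested genes rho was 0.30 and 0.41 (normal), -0.21 and -0.095 (BAPN), 0.098 (coQ10), 0.14 and 0.12 (TPA), and -0.0001 and -0.41 (T-5224). Over the 77 members it was 0.18 and 0.43, -0.29 and 0.014, -0.028, 0.23 and 0.14, and -0.069 and -0.30 in the same order. In T-5224 replicate 2 short genes were therefore higher, members or not. After a length trend was removed from each library, the members' median relative to all genes went from 0.19 to -0.20 in BAPN against normal, from 0.43 to 0.34 in T-5224 against BAPN and from -0.59 to -0.24 in TPA against T-5224. RNA quality values are not in the files used here, and their part was not tested.

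**Figure D5:**
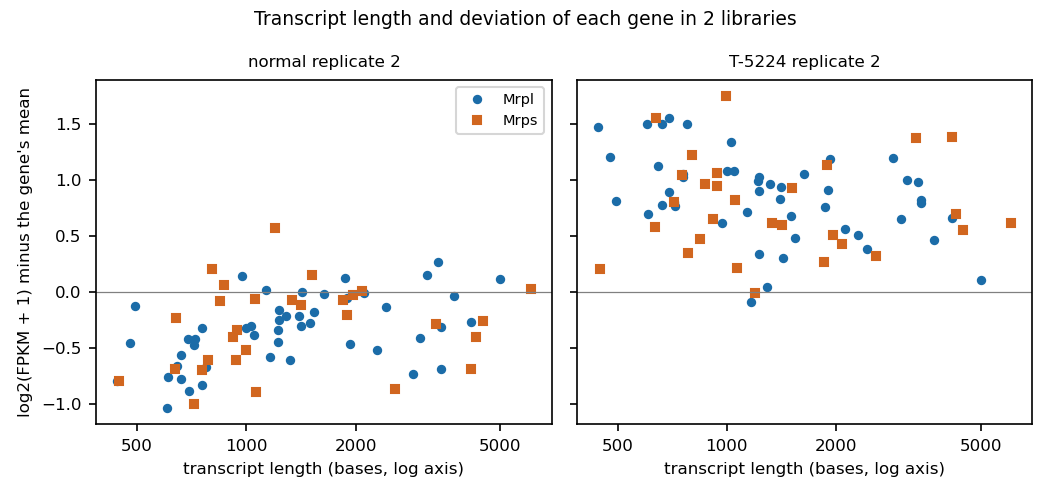
Deviation of each of the 77 genes from its own mean, on the log2(FPKM + 1) scale, against transcript length (log axis) in normal replicate 2 and T-5224 replicate 2 (Mrpl circles, Mrps squares). Short genes lie lowest in normal replicate 2 (rho 0.43) and highest in T-5224 replicate 2 (rho -0.30), where nearly all 77 lie above 0.

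Other parts of the mitochondrial translation apparatus gave no passing gene in any comparison either. The 6 tested mitoribosomal proteins with other symbols, which include Dap3 and Ptcd3 of the small subunit and Gadd45gip1 of the large one, had medians of -0.28 in BAPN against normal, 0.66 in T-5224 against BAPN and -0.71 in TPA against T-5224. For Ict1 the level was 33.4 and 16.4 FPKM (normal), 13.1 and 21.5 (BAPN), 46.4 (coQ10), 21.2 and 23.5 (TPA) and 37.9 and 59.4 (T-5224), with changes over BAPN of 1.44 with T-5224 and 1.41 with coQ10. The 17 tested genes of ribosome assembly and rRNA modification had medians of -0.70, 0.57 and -0.33 in the same 3 comparisons. For the 15 translation factors the medians were -0.67, 0.65 and -0.34. Tufm, the elongation factor that brings tRNA to the ribosome, had 76.2 and 34.9 FPKM (normal), 34.0 and 17.4 (BAPN), 51.3 (coQ10), 34.2 and 39.7 (TPA) and 29.0 and 38.4 (T-5224). Tufm peaked in normal replicate 1, as 13 of the 77 members did. The 16 mitochondrial aminoacyl-tRNA synthetases had medians of -0.51, 0.41 and -0.052, and the 9 genes of mitochondrial transcription -0.84, 0.49 and -0.29. Polrmt, the mitochondrial RNA polymerase, had 11.2 and 8.60 FPKM (normal) and 3.83 and 4.15 (BAPN), and its change of -1.12 did not pass.

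Medians of the cytosolic ribosome and of the respiratory chain are given beside those of the members. The 82 tested cytosolic ribosomal protein genes had medians of 1.03 (BAPN against normal), -0.86 (TPA against BAPN), 0.58 (T-5224 against BAPN), -0.51 (coQ10 against BAPN) and -1.43 (TPA against T-5224). The 82 tested nuclear genes of oxidative phosphorylation had -0.35, 0.34, 0.76, 0.70 and -0.34 in that order. The members had -0.32, 0.14, 0.77, 0.43 and -0.68. No gene of either family passed in any comparison, and no test compared the families.

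The 77 genes lie on 17 chromosomes, with the largest numbers on chromosome 11 (10 genes), 17 (8) and 6 (7). A shared feature is a close neighbour in the opposite direction. In 33 of 77 (42.9%) another protein-coding gene starts within 1000 bases on the opposite strand, compared with 15.0% of the tested genes (1897). Of the 33, 24 are Mrpl and 9 Mrps. They form 32 pairs, of which 18 start apart and 14 overlap at their starts. Mrpl46 and Mrps11 are a pair within the family and overlap by 413 bases. Mrpl46, a large subunit protein, had 29.3 and 18.1 FPKM (normal), 12.3 and 15.0 (BAPN), 20.9 (coQ10), 12.5 and 14.4 (TPA) and 16.2 and 29.9 (T-5224). Like Mrps11 it was highest in T-5224 replicate 2. Partners from mitochondrial metabolism are Ndufs6 and Ndufb5, subunits of complex I, beside Mrpl36 and Mrpl47, the helicase gene Twnk beside Mrpl43, Sars2 beside Mrps12, and Ptcd2 beside Mrps27. Sars2, whose start is 172 bases from that of Mrps12, had 5.81 and 2.69 FPKM (normal), 3.45 and 6.61 (BAPN), 6.50 (coQ10), 5.97 and 4.76 (TPA) and 4.36 and 2.50 (T-5224). Sars2 was lowest in T-5224 replicate 2, where Mrps12 was highest. In 26 members the gene overlaps another coding gene, in 23 on the opposite strand. No source used here says whether the counting used strand, so reads in those overlaps cannot be told apart.

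Promoter sequence was examined as a further feature of the genes, and its part in their levels was not tested. RefSeq (GRCm38.p6) gave 74 promoters, from 250 bases before to 50 after a start, for 68 of the 77 members. CCGGAAG, a core bound by ETS factors such as GABP, an activator of many nuclear genes for mitochondria, stood in 25 of the 74 (33.8%) on either strand, against 15.9% of the promoters of tested genes and 8.86% of all 32851 promoters. ATGGCGG, a YY1 core that often spans the start codon, stood in 13 (17.6%, against 7.37% and 4.05%). CATGCGC, from the NRF1 motif, stood in 8 (10.8%, against 6.37% and 3.91%). TATAAAA, the TATA box, stood in 4 (5.41%, against 2.58% and 5.48%). None of the motifs contains another. Of the 74 promoters, 36 held at least 1 of the first 3, 9 held 2 or more, and that of Mrpl22 held all 3. A match is a description of the letters only, not of binding. The 5 promoters below are shown for carrying matches at the RefSeq starts of Mrpl22, the abundant Mrpl33 and Mrpl52, Mrpl53 and Mrps18a. A RefSeq start can differ from the GENCODE start used for positions and neighbours. That of Mrpl33 lies inside its GENCODE span of chr5:31596935-31664384. Each runs 5′ to 3′ on the gene's strand from 120 bases before to 30 bases after the start, and capitals mark the matches on either strand.
Mrpl22 chr11:58171544-58171693, + strand: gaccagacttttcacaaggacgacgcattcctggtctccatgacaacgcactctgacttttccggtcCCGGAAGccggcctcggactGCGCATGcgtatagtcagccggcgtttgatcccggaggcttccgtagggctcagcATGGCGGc
Mrpl33 chr5:31613831-31613980, + strand: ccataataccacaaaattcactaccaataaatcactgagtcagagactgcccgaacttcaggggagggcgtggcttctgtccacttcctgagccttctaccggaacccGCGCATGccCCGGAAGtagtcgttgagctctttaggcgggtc
Mrpl52 chr14:54426789-54426938, + strand: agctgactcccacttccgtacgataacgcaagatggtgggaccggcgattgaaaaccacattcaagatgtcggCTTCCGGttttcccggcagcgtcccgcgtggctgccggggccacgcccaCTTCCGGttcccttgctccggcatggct
Mrpl53 chr6:83108988-83109137, + strand: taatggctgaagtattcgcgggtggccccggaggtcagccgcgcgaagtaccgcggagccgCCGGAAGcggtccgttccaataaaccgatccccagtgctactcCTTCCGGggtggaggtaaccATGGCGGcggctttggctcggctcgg
Mrps18a chr17:46110884-46111033, + strand: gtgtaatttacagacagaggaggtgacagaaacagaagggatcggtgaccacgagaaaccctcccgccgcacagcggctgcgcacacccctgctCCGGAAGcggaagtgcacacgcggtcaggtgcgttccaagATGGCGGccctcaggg
In Mrpl22, Mrpl53 and Mrps18a the ATGGCGG match lies after the start, and in Mrpl52 CCGGAAG is matched on the opposite strand at 2 places. Mrpl22, the counterpart of bacterial L22 at the exit tunnel, had 27.6 and 17.1 FPKM (normal), 29.1 and 19.8 (BAPN), 21.6 (coQ10), 14.4 and 24.0 (TPA) and 23.6 and 40.3 (T-5224). Mrpl53 had 67.0 and 23.8 FPKM (normal), 41.0 and 32.8 (BAPN), 47.4 (coQ10), 40.1 and 46.6 (TPA) and 44.8 and 84.2 (T-5224). These 2 genes, described for their promoters, also had their highest value in T-5224 replicate 2, as Mrpl52, Mrpl33 and Mrps18a did.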

How the data were processed

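Aorta RNA was extracted with Trizol and made into libraries with a TruSeq kit, per the labels' protocols. The authors deposited 1 table of FPKM per gene symbol for each of 9 libraries, rounded to 2 decimals, with symbols at 0 not listed. The build was mm10, per the submitters' processing notes. No source used here gives the aligner, counting tool, annotation or scaling total. FPKM carry no counts, so the depth per library is unknown and no counting interval is given.

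Unlisted symbols were set to 0. Values were taken as log2(FPKM + 1), and the 12997 genes with a mean of at least 1 FPKM entered limma 3.58.1 (R 4.3.3) with an intensity trend, 5 groups and 4 residual degrees of freedom. P-values are two-sided with Benjamini-Hochberg adjustment over all tested genes at a threshold of 0.05. Fold changes on this scale understate the changes of low genes. The fit was tested on simulated data. The members, lists and rules were chosen with earlier results of these data known.

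Values in every library are given for the 4 Mrpl and 4 Mrps genes with the highest mean, the 3 highest and 3 lowest changes per comparison (none passed), the 4 largest and 4 smallest SDs after subtracting the set's mean, the 2 members just above the level threshold, and Mrps30, Mrps18a, Mrps36, Mrpl10, Mrpl12, Mrps12, Mrpl44 and Mrpl45 for their roles. Gene lists comprised classes of mitoribosomal proteins, assembly, translation factors, aminoacyl-tRNA synthetases, mitochondrial transcription, cytosolic ribosomal proteins, oxidative phosphorylation and markers of other cell types. Positions and transcript lengths came from GENCODE M21 and promoters from RefSeq, GRCm38.p6. Figures were drawn with matplotlib 3.10.9, and tables were made in Python 3.11.15 (scipy 1.17.1, numpy 2.4.6, pandas 2.3.3). Alternatives were a pseudocount of 0.1, no filter on low values, median-of-ratios scaling, haemoglobin left out of the sum, a length trend removed from each library, only the groups compared, a replicate block, and libraries left out. Removal of the length trend together with T-5224 replicate 2, and a fit without the TPA libraries, were added after seeing the data.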

Additional observations from a re-analysis of the deposited data

How the results depend on the processing

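In BAPN against normal the median of the 77 genes relative to all tested genes went from 0.19 to -0.20 with the length trend removed, and to -0.21 with T-5224 replicate 2 also left out. The number of members that passed there rose from 0 to between 0 and 3 over the fits that leave out 1 library each, to 6 (7.79%: Mrpl16, Mrpl52, Mrpl54, Mrps10, Mrps22 and Mrps33; all genes 31%) with normal replicate 1 and T-5224 replicate 2 left out together, and to 1 (Mrps22; all genes 9.16%) with the length trend removed and T-5224 replicate 2 left out. In those leave-out fits a lone library is assumed to vary like the other groups. In T-5224 against BAPN the relative median of 0.43 ranged from 0.12 to 0.92 over the fits without 1 library, and with the same 2 libraries left out 3 members (3.9%) passed (Mrpl15, Mrpl36 and Mrps21; all genes 17.3%). In coQ10 against BAPN 3 passed then (Mrpl34, Mrpl37 and Mrps30; all genes 22.8%). In TPA against T-5224 the relative median of -0.59 became -0.24 with the length trend removed, -0.078 without T-5224 replicate 2 as well, and -0.14 with the 2 libraries left out. Over the fits without 1 library it ranged from -1.06 to -0.14 and the members that passed from 0 to 5. In the test of any difference among the 5 groups they ranged from 0 to 2 (Mrpl52 and Mrps18c without T-5224 replicate 1, where 1016 of all genes passed). The pseudocount, the filter and the fit of only the groups compared left the number of members that passed at 0 and kept the sign of the 160 changes of the named genes. Of 2912 alternative values of those changes, 208 changed sign and 19 passed only under an alternative.

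The number of all genes that passed in BAPN against normal, 424, was 152 with a pseudocount of 0.1, 53 without a filter, 226 with median-of-ratios scaling, 27 without haemoglobin, 132 with the length trend removed, 37 with only the 2 groups, and 0 to 3670 without 1 library. Correlations of same-numbered libraries between groups ran from -0.44 to 0.18. With 2 libraries per group these cannot settle whether the numbers pair the libraries. With the replicate number as a block, 0 members passed in the 4 comparisons without coQ10, and 8, 2, 0 and 2 of all genes did (BAPN against normal, TPA against BAPN, T-5224 against BAPN, TPA against T-5224).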
